A study of Rattus norvegicus with 16 samples.

Results

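Cyclic AMP (cAMP) is made by adenylyl cyclases, broken down by phosphodiesterases and read by protein kinase A (PKA) and by the exchange factors Rapgef3 and Rapgef4. The genes of this signaling chain were followed in rat dorsal root ganglia (DRGs) after implantation of tumor cells into the tibia (TCI). They were chosen by name, as every gene whose symbol fits the cyclases Adcy, the phosphodiesterases Pde, the PKA subunits Prkac and Prkar, Rapgef3 or Rapgef4, together with the CREB factors Creb1, Crem and Crtc1. This gave 44 of the 21021 genes listed, namely 10 cyclases, 23 Pde genes, 2 catalytic and 4 regulatory PKA subunits, the 2 exchange factors and the 3 CREB factors. Some Pde symbols name other proteins, since Pde6d encodes a chaperone of prenylated proteins and Pde12 a mitochondrial enzyme that trims RNA. Of the rest, Pde5a, Pde9a and the photoreceptor genes Pde6a, Pde6b and Pde6c encode enzymes for cyclic GMP (cGMP).

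In the TCI groups, adult female Sprague-Dawley rats received cells of a rat mammary carcinoma line in the left tibia, and DRGs were taken on day 1, 7 or 14. The sham group is labelled as given PBS, whereas the study's methods describe killed tumor cells, so what the control tibia received is not settled. The ipsilateral L3 to L5 DRGs of 1 rat formed 1 sample, with 4 samples in each of the 4 groups, and values below rest on the 14 samples the study kept, which leave out sample 2 of the day 1 group and sample 3 of the day 7 group. All sham DRGs are labelled day 14, so at days 1 and 7 the tumor and the time since the operation cannot be told apart.

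In sensory neurons, receptors coupled to the stimulatory G protein raise cAMP, those coupled to the inhibitory G protein, such as opioid receptors, lower it, and PKA and Rapgef4 are known to sensitize nociceptors to inflammatory mediators. PKA is held inactive by its regulatory subunits until cAMP binds them. The freed catalytic subunits phosphorylate channels and, in the nucleus, Creb1, which binds the cAMP response element. A whole ganglion also contains glia of the satellite and Schwann types, blood vessels and leukocytes, many of which use the same genes, and fewer cells of a type and less RNA per cell cannot be told apart in bulk RNA.

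Levels are given as FPKM, the fragments of a gene divided by its transcript length and by all mapped fragments of the sample, which is a scale per length, so that genes can be compared with each other. The sum of FPKM over all genes was 436572 to 441397 in the sham samples, 443149 to 450274 in those of day 1, 448754 to 473959 in those of day 7, and 440863 to 467557 in those of day 14. Read totals are not part of these tables, so the counting error of a value is not known. The left-out sample 3 of day 7 stood apart, with a median correlation of 0.926 with the other samples and a summed FPKM of 27862 over 16 skeletal muscle genes. Among the samples used, sham sample 4 had the highest sum of those genes, 939 FPKM, against 303 to 317 in the other sham samples. The labelled tissue was borne out by the neuronal list, whose 22 genes were all detected and summed to 19400 to 20440 FPKM in sham.

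Of the 44 genes, 32 had promoter windows in RefSeq (GRCr8), 48 windows in all, each running from 250 bases before to 50 after an annotated start. The full cAMP response element, TGACGTCA, reads the same on both strands, and its shorter core, TGACG, was searched on both strands and is contained in it. The full element was found in 4.17% of the 48 windows, against 1.83% of 33469 windows of all genes, and the core in 29.2%, against 21.2%. The 48 windows were also richer in G and C, with a median of 59.7% against 51.7%, and both motifs contain CG. The 14 windows with the core came from 10 genes, so windows are not independent, and these shares were not tested. Both windows with the full element belong to Crem, a gene known to be induced by cAMP through such elements. The windows of 4 of the genes called below and these 2 windows of Crem are shown from 5′ to 3′, with any match in capitals, so that the presence of the element can be set beside the levels. A match describes the letters only, and no window was found for Pde9a. The build of the FPKM tables is not given, so these positions hold for GRCr8 alone.
Adcy4, chr15:33251977-33252276, minus strand: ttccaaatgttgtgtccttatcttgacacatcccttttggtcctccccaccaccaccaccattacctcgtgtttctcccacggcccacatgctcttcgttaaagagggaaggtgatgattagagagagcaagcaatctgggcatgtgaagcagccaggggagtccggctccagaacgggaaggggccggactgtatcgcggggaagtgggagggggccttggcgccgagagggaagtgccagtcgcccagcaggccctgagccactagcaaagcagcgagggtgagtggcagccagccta
Adcy7, chr19:34936495-34936794, minus strand: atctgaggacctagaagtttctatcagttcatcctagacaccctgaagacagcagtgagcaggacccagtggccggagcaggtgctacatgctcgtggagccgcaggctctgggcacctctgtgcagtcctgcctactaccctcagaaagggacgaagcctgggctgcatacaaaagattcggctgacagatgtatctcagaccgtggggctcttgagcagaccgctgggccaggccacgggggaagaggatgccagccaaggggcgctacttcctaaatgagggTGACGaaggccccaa
Pde5a, chr2:213543776-213544075, plus strand: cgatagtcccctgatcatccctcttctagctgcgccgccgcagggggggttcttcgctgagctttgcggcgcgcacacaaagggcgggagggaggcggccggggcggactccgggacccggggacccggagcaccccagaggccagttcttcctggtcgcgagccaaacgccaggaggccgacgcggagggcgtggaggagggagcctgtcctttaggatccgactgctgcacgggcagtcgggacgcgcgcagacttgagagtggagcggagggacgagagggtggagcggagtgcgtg
Rapgef4, chr3:77216797-77217096, plus strand: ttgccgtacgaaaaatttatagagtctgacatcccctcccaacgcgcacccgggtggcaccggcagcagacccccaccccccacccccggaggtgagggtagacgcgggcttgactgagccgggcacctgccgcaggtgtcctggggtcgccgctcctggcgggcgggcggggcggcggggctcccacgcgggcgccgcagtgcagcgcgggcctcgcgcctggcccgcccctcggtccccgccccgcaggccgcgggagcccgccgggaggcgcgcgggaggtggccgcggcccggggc
Crem, chr17:58984547-58984846, plus strand: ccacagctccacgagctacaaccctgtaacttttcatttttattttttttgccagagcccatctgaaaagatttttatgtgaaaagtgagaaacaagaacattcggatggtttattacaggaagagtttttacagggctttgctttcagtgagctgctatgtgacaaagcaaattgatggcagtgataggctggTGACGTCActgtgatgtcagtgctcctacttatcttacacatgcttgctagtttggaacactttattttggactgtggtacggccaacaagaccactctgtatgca
Crem, chr17:58985240-58985539, plus strand: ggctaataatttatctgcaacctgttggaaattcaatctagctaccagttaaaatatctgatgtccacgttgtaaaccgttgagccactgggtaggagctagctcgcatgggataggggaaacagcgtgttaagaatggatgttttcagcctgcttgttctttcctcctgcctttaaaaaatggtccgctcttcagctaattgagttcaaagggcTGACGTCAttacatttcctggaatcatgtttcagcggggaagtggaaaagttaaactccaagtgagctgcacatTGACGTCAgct
The windows of Adcy4, Pde5a and Rapgef4 held neither motif, that of Adcy7 held 1 core that begins 36 bases after the start, and those of Crem held the full element 56 bases before the start and, in the other window, 35 bases before and 40 after it.

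The PKA subunits were by far the most abundant of these genes. In the 4 sham samples the 44 genes summed to a mean of 901.9 FPKM, of which 73.1% came from the 6 PKA genes. Prkar1a, the widely used type I regulatory subunit, had the highest level, 214 to 219 FPKM, followed without overlap by its relative Prkar1b, 193 to 209 FPKM. The catalytic subunits Prkaca, 81.2 to 84.5 FPKM, and Prkacb, 75.7 to 89.5 FPKM, came next and overlapped with each other. Below them stood the type II regulatory subunits Prkar2b, 37.0 to 44.9 FPKM, and Prkar2a, 34.9 to 37.2 FPKM, and between these Pde6d, 36.7 to 37.8 FPKM, so these neighbours in the order did not separate. Rapgef4, which carries the cAMP signal to small GTPases without PKA, followed at 26.1 to 27.5 FPKM, far above its relative Rapgef3 at 4.38 to 5.01 FPKM.

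Among the phosphodiesterases that hydrolyze cAMP, Pde2a, which cGMP stimulates, led with 17.1 to 18.4 FPKM, followed by the calcium-calmodulin enzyme Pde1c with 14.0 to 17.1 FPKM. The PKA-regulated cAMP enzyme Pde4d was near 9 FPKM in sham (8.92 ± 0.07, SD, n = 4), above the other Pde4 genes, of which Pde4c had 3.73 to 4.85, Pde4b 3.36 to 4.11 and Pde4a 1.5 to 1.84 FPKM. Adcy3, best known from olfactory neurons, was the leading cyclase with 11.3 to 12.6 FPKM. Adcy5 and Adcy6, the cyclases inhibited by calcium, had 8.32 to 10.13 and 7.63 to 8.49 FPKM, and the calmodulin-stimulated Adcy1 had 7.17 to 7.98 FPKM. Adcy4 was the lowest of the 40 genes that could be tested, at 0.93 to 1.31 FPKM. In all, 12 of the 44 genes had a sham mean of at least 10 FPKM, 28 lay between 1 and 10, and 4 were below 1, namely the soluble cyclase Adcy10 and the photoreceptor genes Pde6a, Pde6b and Pde6c. These 4 were under 1 FPKM in every sample used and were not tested. Of the 43 pairs of neighbours in the order of sham means, 16 did not overlap, so most neighbours in this order do not differ beyond the spread between rats.

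**Figure D1:**
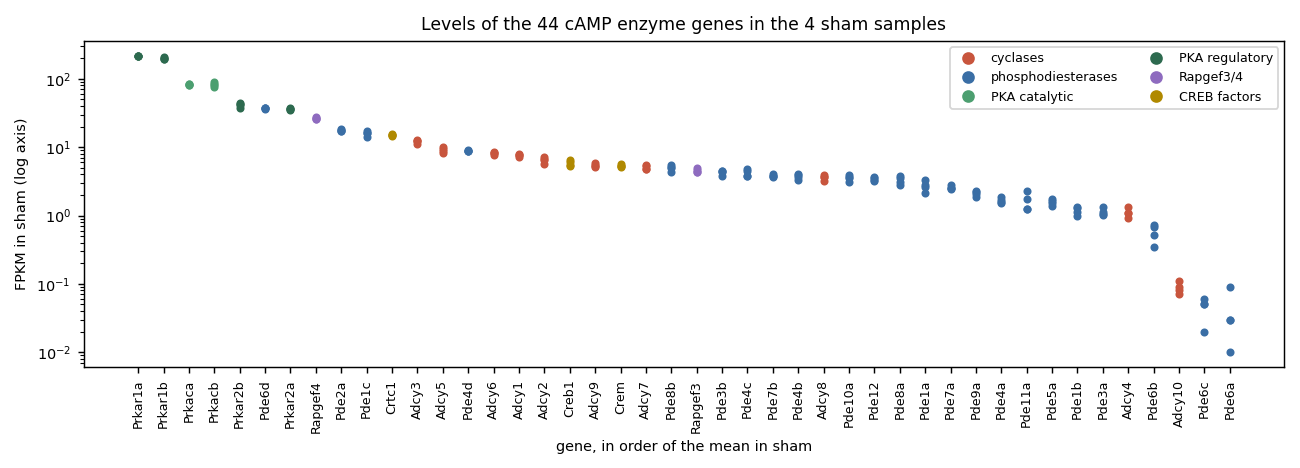
FPKM (log axis) of each of the 44 genes in the 4 sham samples, ordered by their mean and colored by class; each point is 1 sample. The 6 PKA genes lie among the 7 highest, and Adcy10, Pde6a, Pde6b and Pde6c lie below 1 FPKM.

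The genes varied little between rats of 1 group. On the scale of log2(FPKM + 1) the median SD within groups was 0.12 for the 40 tested genes, against 0.11 for all 14023 genes tested. Prkar1a had the smallest SD of the 40, 0.032, followed by Rapgef4 with 0.054 and Adcy3 with 0.055. At the other end stood Pde11a with 0.24, Creb1 with 0.24 and Rapgef3 with 0.23, so a change of a given size is harder to see in these 3.

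To see how the chain differed from sham at each stage, every gene was compared in 1 linear model over the 4 groups (limma on log2(FPKM + 1)), and a gene was called when its Benjamini-Hochberg adjusted p over all genes tested was at most 0.05. A fold change on this scale understates the change of low genes, so the ratio of mean FPKM is given beside it. On day 1 no gene of the chain was called, nor was any other gene (0% of those tested). At an unadjusted p under 0.05 there were 3 of 40, or 7.5%, against 5.23% of all genes. The study itself tested with DEGseq2 rather than limma. It did report changed genes 1 day after TCI, and cAMP signaling among the pathways enriched in them. Its limits, given next, were thus applied here to a different test, and the resulting shares do not repeat its counts. The study's own limits, a log2 fold change of at least 1 and an adjusted p of at most 0.001, were met by none of the 40 genes on any day on this scale, against 1.83% of all genes on day 7 and 0.642% on day 14. With the fold taken from mean FPKM without the added 1, Adcy4 on day 7 met them, 1 of 40 genes or 2.5%, against 2.03% of all genes, and none of the 40 did on day 14, against 0.685%.

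On day 1, 5 genes of the chain were lower than sham without overlap. Prkacb had 75.7, 89.5, 83.0 and 80.9 FPKM in sham and 74.3, 64.1 and 74.1 FPKM on day 1. All day 1 samples were thus below all sham samples, but the difference, -0.21 on the log2 scale (95% interval -0.38 to -0.05), had an adjusted p of 0.879 by limma. Rapgef4, Prkar2a, Pde4d and Prkar1a were also lower in every day 1 sample than in any sham sample, with log2 differences of -0.12, -0.13, -0.21 and -0.07 and none called. These 5 genes are 12.5% of the 40, against 5.73% of all genes lower without overlap, and none was higher without overlap, against 6.17% of all genes. For 37 of the 40 genes the 95% interval of the day 1 difference lay within 0.5 of no change on the log2 scale, against 86.5% of all genes. The exceptions were Pde4c, Pde11a and Creb1. In the same day 1 samples, 9 Schwann cell markers summed to 13441 to 14694 FPKM, above the 9061 to 11984 FPKM of sham, and 8 fibroblast markers to 626 to 813 FPKM, above the 416 to 594 FPKM of sham. Their part in the day 1 differences was not tested.

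On day 7 after TCI, 5 of the 40 genes were called, or 12.5% against 17.9% of all genes, and 4 of them were higher than in sham. The cyclases Adcy4 and Adcy7 and the cGMP phosphodiesterases Pde5a and Pde9a rose, and Rapgef4 fell. The 4 higher genes are 10% of those tested, against a background of 14.5% of all genes, and the 1 lower gene is 2.5%, against 3.45%, so these shares do not exceed those of all genes. At an unadjusted p under 0.05 there were 9, or 22.5%, against 31.2% of all genes. The other 35 genes, among them all PKA subunits and the CREB factors, were not called.

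Adcy4, a cyclase that G protein beta-gamma subunits stimulate, showed the largest difference of the 40 genes. It had 1.08, 1.08, 0.93 and 1.31 FPKM in sham, 1.41, 1.35 and 1.28 on day 1, 2.96, 2.96 and 2.50 on day 7, with 1.63, 2.04, 1.63 and 2.01 on day 14. Every sample of days 7 and 14 thus exceeded every sham and day 1 sample, and the day 7 samples exceeded those of day 14. The day 7 mean was 2.55 times the sham mean (log2 fold change 0.86, SE 0.09, limma adjusted p = 9.14e-05), and the day 14 mean was 1.66 times (0.43, SE 0.08, adjusted p = 0.00463). Between days 7 and 14 the difference was -0.43 with an adjusted p of 0.118, which was not called. It was called when sample 2 of day 14 was left out (-0.47, adjusted p = 0.0306) and over all 16 samples with quality weights (adjusted p = 0.0179).

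Adcy7 belongs to the same beta-gamma-stimulated branch of cyclases and is known from immune cells. Its values were 4.74, 4.86, 5.47 and 5.37 FPKM in sham, 5.14, 6.13 and 5.34 on day 1, 7.53, 7.74 and 5.83 on day 7, with 6.70, 8.09, 6.32 and 5.98 on day 14. Days 7 and 14 did not overlap with sham, and sample 2 of day 14 had the highest value of all. The day 7 mean was 1.38 times sham (log2 fold change 0.39, SE 0.11, adjusted p = 0.0216) and the day 14 mean 1.33 times (0.34, SE 0.10, adjusted p = 0.0320) by limma. Over all 16 samples the adjusted p was 0.149 on day 7 and 0.110 on day 14. Without sham sample 1, sham sample 2, or sample 1 or 2 of day 7 the day 7 call was lost, with adjusted p of 0.0605, 0.0559, 0.0896 and 0.0967. Without sham sample 1, sham sample 2, or sample 1 or 2 of day 14 the day 14 call was lost as well, with 0.0898, 0.0840, 0.0533 and 0.0856. The day 14 call was also lost by median-ratio scaling (adjusted p = 0.0511), with only the 2 groups compared (0.0531) and with no filter on low values (0.0505).

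The third member of this cyclase branch, Adcy2, had 5.73 to 7.06 FPKM in sham and 6.09 to 6.36 on day 7, a log2 difference of -0.06 (95% interval -0.20 to 0.09). Adcy3, the leading cyclase, had 11.3, 12.45, 12.3 and 12.6 FPKM in sham and 10.7, 11.75 and 10.97 on day 7. The lowest sham value lay among those of day 7, and the differences of -0.12 on both day 7 and day 14 were not called (adjusted p of 0.139 and 0.119). Adcy9 was lower in every day 7 sample, 4.16 to 5.16 FPKM, than in any sham sample, 5.17 to 5.77 FPKM, though the nearest samples almost touched and the gene was not called (-0.15, adjusted p = 0.178). For Adcy1, Adcy5, Adcy6 and Adcy8 the day 7 differences ranged from -0.09 to 0.08 and the groups overlapped.

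Pde9a, a cGMP phosphodiesterase of very high affinity, rose on both later days. It had 2.18, 1.89, 2.05 and 2.26 FPKM in sham, 2.16, 2.58 and 2.05 on day 1, 3.48, 3.17 and 3.38 on day 7, with 3.06, 2.84, 3.43 and 3.04 on day 14. The samples of days 7 and 14 all lay above those of sham and day 1, and days 7 and 14 overlapped with each other. The means were 1.60 times sham on day 7 (log2 fold change 0.49, SE 0.08, adjusted p = 0.00096) and 1.48 times on day 14 (0.40, SE 0.07, adjusted p = 0.00314) by limma.

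Pde5a, the cGMP phosphodiesterase of vascular smooth muscle that sildenafil inhibits, had 1.5, 1.64, 1.36 and 1.75 FPKM in sham, 1.42, 1.09 and 1.37 on day 1, and 2.99, 3.04 and 2.51 on day 7. Day 7 did not overlap with sham and its mean was 1.82 times as high (log2 fold change 0.59, SE 0.13, limma adjusted p = 0.00611). On day 14 the values spread from 1.43 to 2.61 FPKM and overlapped with sham, and the difference of 0.24 was not called (adjusted p = 0.183). Without sample 3 of day 14, the lowest of them, it was 0.35 with an adjusted p of 0.0323, and over all 16 samples with quality weights it was 0.38 with an adjusted p of 0.0126.

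With FPKM as deposited, the phosphodiesterases that hydrolyze cAMP were not called on either day. The day 7 differences of the 20 Pde genes tested ranged from -0.28 for Pde1c to 0.59 for Pde5a, with a median of 0.08. Pde1c had 16.2, 17.1, 14.0 and 15.9 FPKM in sham and 13.9, 12.7 and 11.9 on day 7, all below sham, with an adjusted p of 0.0564 by limma. Under both other scalings described below it was called lower on day 7 (-0.33, adjusted p = 0.0218, by median ratio and -0.36, adjusted p = 0.0111, by quantiles). Pde3b, a cAMP enzyme inhibited by cGMP, was above sham in every day 7 sample, 4.56 to 5.52 against 3.80 to 4.52 FPKM, with an adjusted p of 0.200. The lymphocyte and brain enzyme Pde7a was above sham in every day 14 sample, 2.85 to 3.72 against 2.46 to 2.75 FPKM, with an adjusted p of 0.106. For Pde2a, Pde4d and Pde6d the day 7 differences were 0.11, -0.05 and 0.0038, and the 95% intervals ran from -0.12 to 0.35, from -0.26 to 0.16 and from -0.13 to 0.14.

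**Figure D2:**
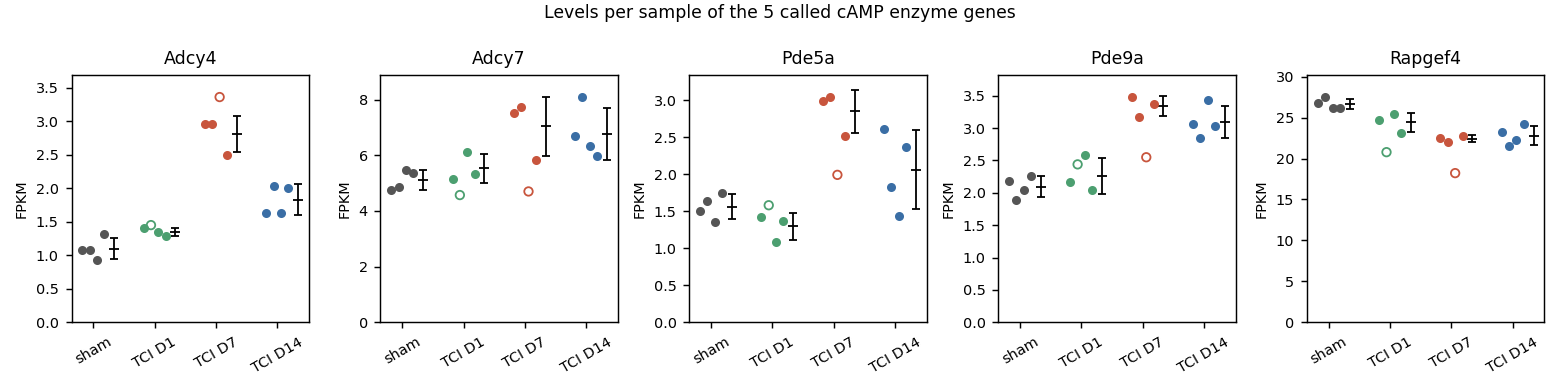
FPKM per sample of Adcy4, Adcy7, Pde5a, Pde9a and Rapgef4 in sham and on days 1, 7 and 14 after TCI (D1, D7, D14). Filled points are samples used, open points the 2 left out, and bars show the mean ± SD of the samples used; Adcy4 went from 0.93 to 1.31 FPKM in sham to 2.50 to 2.96 on day 7, while Rapgef4 went from 26.1 to 27.5 FPKM to 22.03 to 22.8.

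Rapgef4 (also called EPAC2) was the only gene of the chain called lower with FPKM as deposited in the 14 samples used. It had 26.8, 27.5, 26.1 and 26.2 FPKM in sham, 24.75, 25.4 and 23.1 on day 1, 22.5, 22.03 and 22.8 on day 7, with 23.2, 21.6, 22.2 and 24.3 on day 14. No sample of any TCI group reached the lowest sham value. The means were 0.842 times sham on day 7 (log2 fold change -0.24, SE 0.05, adjusted p = 0.00397) and 0.856 times on day 14 (-0.22, SE 0.04, adjusted p = 0.00615) by limma. Over all 16 samples, the day 14 difference of -0.22 had an adjusted p of 0.0814. Its relative Rapgef3 varied more, with 2.78 to 5.23 FPKM on day 14 against 4.38 to 5.01 in sham, and its 95% intervals of -0.18 to 0.52 on day 7 and -0.52 to 0.13 on day 14 leave changes of either sign possible.

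With FPKM as deposited, no PKA subunit was called on any day. By median-ratio scaling, Prkacb (-0.27, adjusted p = 0.0328), Prkar1a (-0.13, adjusted p = 0.0304) and Prkar2a (-0.16, adjusted p = 0.0485) were called lower on day 7. Prkar1a had 214, 219, 217 and 218 FPKM in sham, 212, 206 and 205 on day 1, 208, 211 and 202 on day 7, with 211, 212, 198 and 208 on day 14. These were below every sham sample on all 3 days, yet the means were 0.953 and 0.955 times sham on days 7 and 14 and the adjusted p was 0.213 and 0.197 by limma. Prkaca had 84.5, 84.3, 81.2 and 81.8 FPKM in sham and 75.9, 75.9 and 80.2 on day 7, below sham in each sample (-0.10, adjusted p = 0.304), and on day 14 it spread from 73.7 to 91.4 FPKM around the sham values. With quality weights over all 16 samples its day 7 difference was called (-0.12, adjusted p = 0.0460). Prkacb stayed lower than sham in mean, at 0.864 times on day 7 and 0.891 times on day 14, with overlapping samples and adjusted p of 0.0829 and 0.146. The day 7 difference of Prkacb was called over all 16 samples (-0.28, adjusted p = 0.0323), as was that of Pde1c (-0.41, adjusted p = 0.0286). Prkar1b, Prkar2a and Prkar2b had day 7 differences of -0.07, -0.11 and 0.02, with 95% intervals from -0.23 to 0.09, from -0.23 to 0.01 and from -0.18 to 0.22.

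Among the CREB factors, the coactivator Crtc1, which enters the nucleus when cAMP and calcium rise, had 14.9, 15.4, 14.7 and 15.1 FPKM in sham, 15.6, 16.5 and 14.2 on day 7, with 17.2, 14.3, 14.5 and 15.4 on day 14. The groups overlapped and the differences were 0.03 on both days (adjusted p of 0.774 and 0.807). Crem, whose short ICER products repress the same promoters, had 5.11 to 5.61 FPKM in sham and 6.14 to 6.28 on day 7, higher without overlap but with an adjusted p of 0.135, and FPKM per gene does not separate ICER from the other products. Creb1 had 5.27, 6.53, 5.40 and 6.15 FPKM in sham and 4.90, 3.24, 2.78 and 5.56 on day 14. Samples 2 and 3 of day 14 were far below sham and sample 4 within it, and the difference of -0.45 (95% interval -0.78 to -0.12) had an adjusted p of 0.0658. It was called lower by median-ratio scaling (-0.48, adjusted p = 0.0455) and by quantiles (-0.54, adjusted p = 0.0183).

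On day 14, then, 4 of the 40 genes were called, Adcy4, Adcy7 and Pde9a higher and Rapgef4 lower. The 3 higher genes are 7.5%, against 11.9% of all genes, and the 1 lower gene is 2.5%, against 3.21%. At an unadjusted p under 0.05 there were 10, or 25%, against 29.9% of all genes. All 4 were among the 5 called on day 7, but both comparisons use the same sham samples. Between days 7 and 14 none of the 40 was called by limma, against 0.0998% of all genes (0.00713% higher and 0.0927% lower on day 14, and 0.0143% by the study's limits). At an unadjusted p under 0.05 there were 4 (Adcy4, Pde5a, Rapgef3 and Creb1, all lower on day 14), or 10%, against 9.96%. Adcy4 alone was lower on day 14 without overlap, or 2.5% against 4.24%, none was higher without overlap, against 2.79%, and 35 had an interval within 0.5 of no change, or 87.5% against 83.9%.

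**Figure D3:**
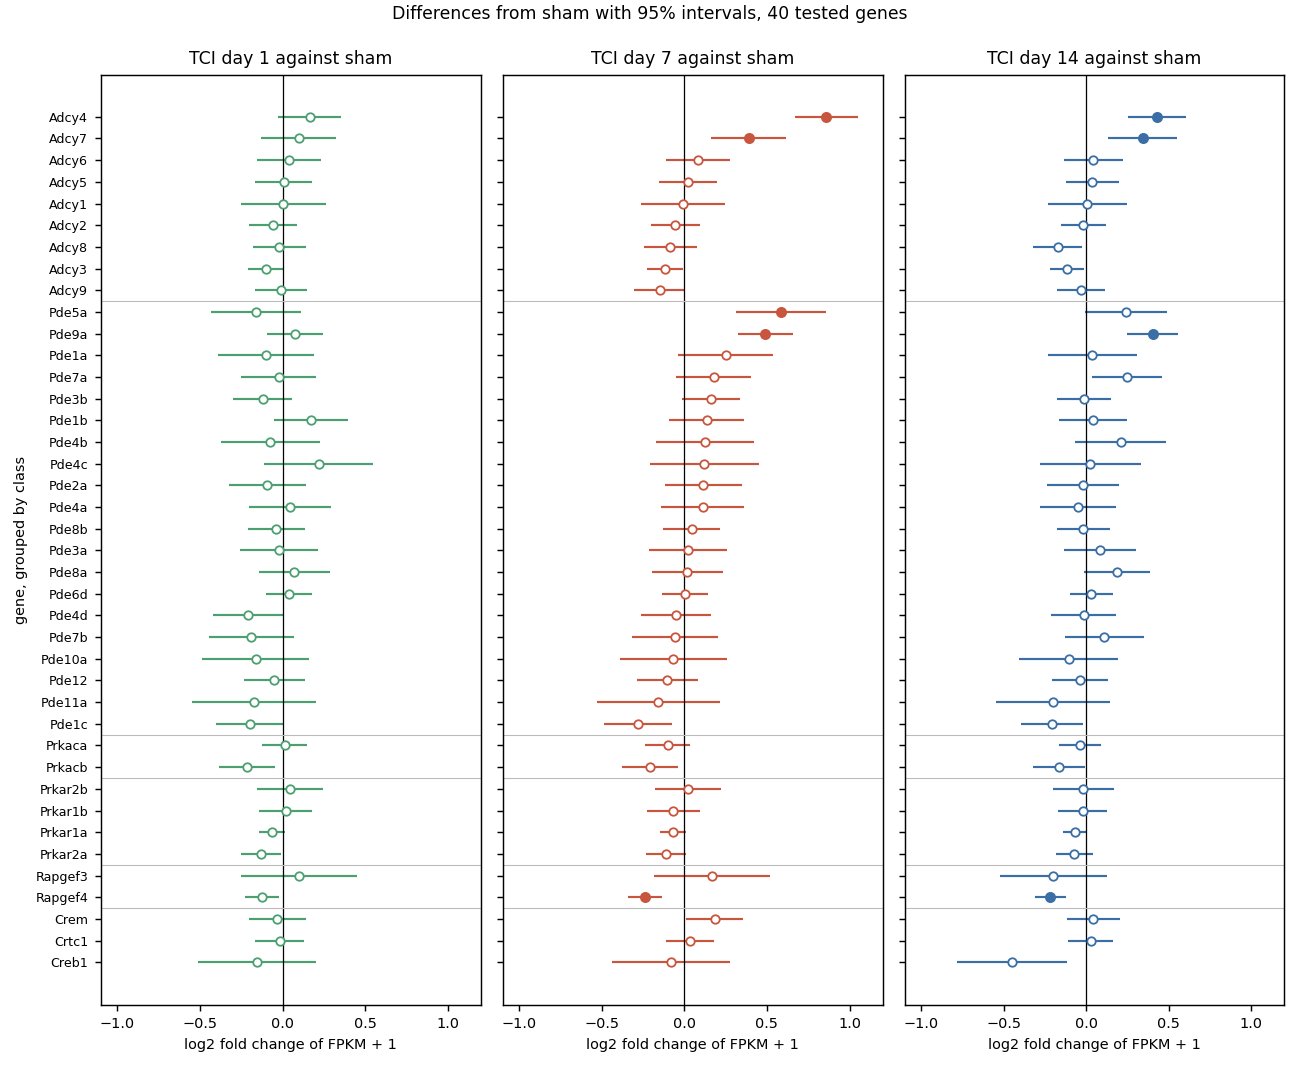
Log2 fold change of FPKM + 1 against sham on days 1, 7 and 14 for the 40 tested genes, grouped by class, with 95% intervals from limma. Filled points are called genes, none on day 1, 5 on day 7 and 4 on day 14; most other intervals lie within 0.5 of no change.

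For most genes of the chain the data set a bound on the change on the scale of log2(FPKM + 1). For genes of low level this bound allows a larger change of FPKM itself. Pde5a on day 7, for example, differed by 0.59 on this scale at 1.82 times the sham mean. On day 7, 33 of the 40 had a 95% interval within 0.5 of no change (82.5%, against 76.7% of all genes), and on day 14 it was 34 (85%, against 80.3%). Those beyond it on day 7 were 4 called genes and Pde1a, Rapgef3 and Pde11a, and on day 14 they were 3 called genes and Creb1, Rapgef3 and Pde11a. The median log2 fold change of the 40 was 0.02 on day 7 and -0.02 on day 14, against 0.04 and 0.03 for all genes. Without regard to sign the medians were 0.11 and 0.06, against 0.12 and 0.11. Samples of day 7 lay wholly above sham in 6 genes (the 4 called ones, Crem and Pde3b), or 15% against 23.8% of all genes, and wholly below in 6 (Rapgef4, Pde1c, Adcy9, Prkar2a, Prkar1a and Prkaca), or 15% against 10.1%. On day 14 this was so for 4 (the 3 called ones and Pde7a), or 10% against 13.8%, and for Rapgef4 and Prkar1a, or 5% against 5.38%.

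The balance of higher and lower genes depended on how samples were scaled against each other. With FPKM as deposited, 4 of the 40 genes were called higher and 1 lower on day 7. After scaling by the median ratio to a common reference it was 4 higher and 6 lower, and after quantile normalization 2 higher (Adcy4 and Pde5a) and 7 lower. On day 14 the splits were 3 and 1 as deposited, 2 and 2 by median ratio, and 1 and 6 by quantiles. Of all 14023 genes tested, 2028 were called higher and 484 lower on day 7 as deposited. By median ratio these counts were 1594 and 1044, and by quantiles 1341 and 2320. On day 14 they were 1670 and 450, 1335 and 795, and 1101 and 1547 in the same order. Over all genes, 80.7% of the day 7 calls were higher as deposited, 60.4% by median ratio and 36.6% by quantiles, and the median day 7 change of all genes moved from 0.04 to -0.01 and -0.07. On day 14 these shares were 78.8%, 62.7% and 41.6%. Adcy4 was called higher and Rapgef4 lower on both days under all 3 scalings. Beside Rapgef4, the genes called lower on day 7 by median ratio were Prkar1a, Adcy3 (-0.17, adjusted p = 0.0401), Pde1c, Prkacb and Prkar2a, and by quantiles they were Prkar1a, Adcy3, Pde1c, Adcy8, Adcy9 (-0.31, adjusted p = 0.00427) and Pde12. On day 14 Creb1 was added by median ratio, and Creb1, Prkar1a, Adcy3, Adcy8 and Pde1c by quantiles. Under quantile normalization, Pde9a and Adcy7 stayed higher without a call on both days, with adjusted p of 0.0596 and 0.0664 on day 7, and of 0.0608 and 0.0631 on day 14.

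Summed by class, cyclases overlapped between all groups, whereas the PKA catalytic subunits and the exchange factors were lower than sham in every TCI sample used. The 10 cyclases summed to 58.98 ± 2.63 FPKM in sham (SD, n = 4), 58.7 ± 1.88 on day 1 (n = 3), 61.1 ± 4.84 on day 7 (n = 3) and 60.3 ± 2.33 on day 14 (n = 4). All 23 Pde genes summed to 126 ± 1.01 FPKM in sham, 121 ± 2.22 on day 1, where each sample was below sham, and 130 ± 2.84 on day 7, where the samples overlapped with sham and where median-ratio scaling turned the difference to -1.58. The Pde genes without Pde6d and Pde12 summed to 1.45 ± 0.07 times the cyclases in sham, 1.36 ± 0.03 on day 1, 1.46 ± 0.04 on day 7, with 1.44 ± 0.04 on day 14. The catalytic subunits of PKA summed to 160, 174, 164 and 163 FPKM in sham, 156, 150 and 158 on day 1, 148, 153 and 145 on day 7, with 152, 152, 159 and 155 on day 14. Each TCI sample was below each sham sample in this sum. The regulatory subunits summed to 494 ± 8.44 FPKM in sham and 473 ± 9.49 on day 7, and the ratio of regulatory to catalytic subunits was 2.99 ± 0.13 in sham and 3.19 ± 0.14 on day 7. The exchange factors summed to 30.5 to 32.5 FPKM in sham, 28.7 to 29.9 on day 1, 27.2 to 28.6 on day 7, with 24.3 to 29.5 on day 14. The CREB factors overlapped with sham on each day. Type I subunits made up 84.3% of the regulatory sum in sham, and Prkaca made up 50.2% of the catalytic sum. These sums follow their most abundant members and are given as a description.

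**Figure D4:**
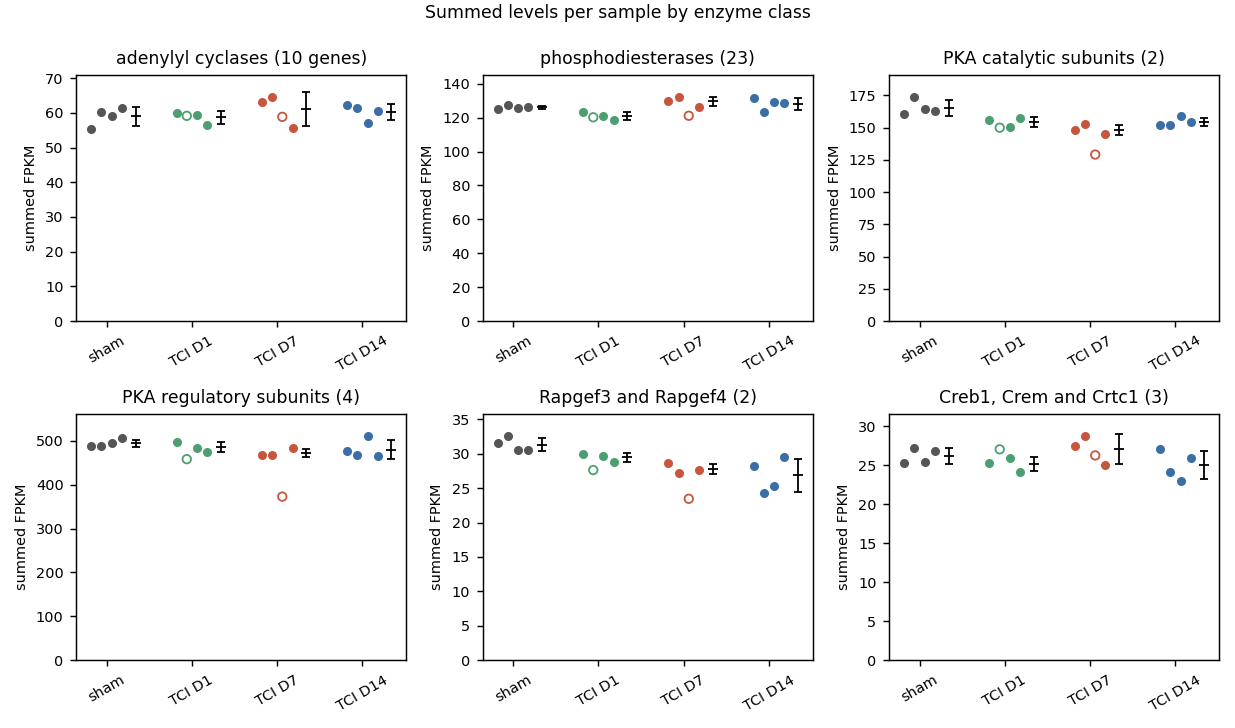
Summed FPKM per sample for the 6 classes in sham and on days 1, 7 and 14 (axes start at 0); filled points are samples used, open points the 2 left out, bars the mean ± SD of the samples used. The PKA catalytic sum was 160 to 174 in sham and 145 to 153 on day 7, and the cyclase sum overlapped in all groups.

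Markers of other cells also differed from sham on days 7 and 14. Counts of markers stand against the 14.5% of all genes called higher and 3.45% called lower on day 7, and the 11.9% and 3.21% on day 14. The 15 macrophage markers were all called higher on day 7 and 13 of them on day 14. They summed to 72.7 to 136.4 FPKM in sham, 96.5 to 114.8 on day 1, 967 to 1303 on day 7, with 544 to 1885 on day 14, and none of them was at 0 in any sample used. Sample 2 of day 14 had the sum of 1885 FPKM. Among the day 14 samples it had the highest Adcy7 (8.09 FPKM) and Adcy4 (2.04 FPKM). It also had the lowest Pde9a (2.84 FPKM) and Rapgef4 (21.6 FPKM) of day 14, and its Pde5a (1.83 FPKM) lay between those of the other samples. Of 12 T cell markers listed, 11 were found and 9 passed the filter of 1 FPKM in 3 samples. All 9 were called higher on both days. A marker near 0 in sham can pass this filter only through the days on which it is high, so the filter partly set this count. The list summed to 6.14 to 9.07 FPKM in sham, 43.4 to 98.9 on day 7, with 36.4 to 105.1 on day 14. In sham, Cd5 was at 0 in 3 samples, Cd3d in 2 and Cd3e in 1.

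Some vessel markers were called too. Of 8 endothelial markers, Cdh5 (0.83) and Vwf (0.59) were called higher on day 7 and none on day 14, and they summed to 62.4 to 70.7 FPKM in sham and 71.4 to 96.2 on day 7. Of 7 markers of pericytes and smooth muscle tested, Tagln (1.59) and Acta2 (0.58) were called higher on day 7 and none on day 14, with sums of 54.5 to 65.8 FPKM in sham and 85.4 to 104.3 on day 7. Fibroblast markers were higher in 4 of 8 on day 7 and in 2 on day 14, with sums of 980 to 1231 FPKM on day 7 and 340 to 969 on day 14. The 9 Schwann cell markers summed to 7534 to 9252 FPKM on day 7 and 7693 to 11649 on day 14, which overlapped with sham. Of the 22 neuronal markers, 5 on day 7 and 6 on day 14 were called lower, including the neurofilaments Nefh, Nefm and Nefl, and the list summed to 16571 to 17336 FPKM on day 7, with 16204 to 19312 on day 14. Of 8 satellite cell markers, Kcnj10 was lower on both days (-0.75 and -0.97), and Kcnj3 was lower and Glul higher on day 7 (-0.41 and 0.44). None of the 8 skeletal muscle markers that could be tested, of 16 listed, was called on any day, and of the fat cell markers Cfd, the only one tested, was higher on both days, while Aqp7 was at 0 in all 14 samples used. Leaving out sham sample 4, which had the most muscle RNA of the sham group, changed none of the calls of the named genes. The part of these cell markers in the values of Adcy4, Adcy7, Pde5a, Pde9a and Rapgef4 was not tested.

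For the other genes of the pathway, too, the background was 14.5% of all genes higher and 3.45% lower on day 7, and 11.9% and 3.21% on day 14. Upstream of the cyclases, 1 gene among the heterotrimeric G protein subunits and their Rgs regulators was called. Of 14 tested, only Gnai2, an inhibitory alpha subunit prominent in immune cells, was called on day 7 (log2 fold change 0.24, adjusted p = 0.0095) and none on day 14. Gnas, the stimulatory alpha subunit, had 1169 ± 38.3 FPKM in sham and 1158 ± 98.7 on day 7. Among 20 receptors that raise cAMP and their accessory proteins, 6 were higher and 2 lower on day 7. Ramp1, which forms the receptor for the neuropeptide CGRP, rose from 6.34 ± 1.87 to 16.6 ± 3.76 FPKM (1.28, adjusted p = 0.0055), and its relative Ramp2 from 39.8 to 56.5 FPKM (0.50, adjusted p = 0.0008). The acid-sensing Gpr65 of leukocytes (1.08) and the prostaglandin receptor Ptger2 (0.73) rose as well, and the lower ones were Gpr3 (-0.35), a receptor active without a known ligand, and the serotonin receptor Htr7 (-0.33). On day 14, 4 of the 20 were higher, among them Gpr65 (0.90), Ramp2 (0.24) and Ramp1 (0.79), and none was lower. Among 26 receptors that lower cAMP, 5 were lower and 1 higher on day 7. Gabbr2, a subunit of the GABA-B receptor, fell from 46.5 to 40.4 FPKM (-0.20, adjusted p = 0.0037), and the neuropeptide Y receptor Npy1r from 17.97 to 13.4 FPKM (-0.40, adjusted p = 0.0105), whereas Cnr2, the cannabinoid receptor of immune cells, rose (0.56). On day 14 Npy1r remained lower (-0.43) and Cnr2 higher (0.59).

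Downstream, the same background holds, 14.5% of all genes higher and 3.45% lower on day 7, and 11.9% and 3.21% on day 14. Of 13 CREB relatives, coactivators and their regulators, 3 were higher on day 7. These were Creb3l1 (0.60), the salt-inducible kinase Sik1 (0.64) and the coactivator Crtc2 (0.21). On day 14, 3 were higher, namely Crtc2 (0.29), Creb3l1 (0.42) and Atf1 (0.28). Among 13 genes known as CREB targets, Junb rose on day 7 (0.79) and Bdnf fell from 6.74 ± 1.02 FPKM to 4.27 ± 0.59 on day 7 (-0.55, adjusted p = 0.0031) and stayed lower on day 14 (-0.46). Fos, another classic target, had 2.65 ± 0.84 FPKM in sham and 3.23 ± 0.63 on day 7 (adjusted p = 0.523). Of 16 inhibitors and anchors of PKA, the nuclear anchors Akap8 (0.26) and Akap8l (0.25) were higher and Akap6 (-0.33) lower on day 7, and Akap8 (0.39) and Akap8l (0.26) were higher on day 14. In the cGMP arm, which supplies the substrate of Pde5a and Pde9a, 3 of 10 genes were higher on day 7. These were the natriuretic peptide receptors Npr1 (0.72, adjusted p = 0.0006) and Npr2 (0.17) and the endothelial nitric oxide synthase Nos3 (0.42). On day 14 Npr1 (0.43) and Nos3 (0.36) were higher and the guanylyl cyclase subunit Gucy1a2 (-0.31) lower. The median day 7 change of the 7 lists lay between -0.13 for the inhibitory receptors and 0.18 for the CREB targets, and that of day 14 between -0.15 and 0.13, against 0.04 and 0.03 for all genes. No gene of these 7 lists was called on day 1, and none between days 7 and 14, by limma.

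Ripk3 and Nfatc4, which lie near Adcy4, were called higher on days 7 and 14, as were 14.5% and 11.9% of all genes. In the RefSeq gene order of GRCr8, Adcy4 lies next to Ripk3, a kinase of necroptosis, and beyond it Nfatc4, and these were looked at after their values were seen. Ripk3 had 0.41, 0.57, 0.82 and 0.61 FPKM in sham, 3.29, 4.58 and 3.32 on day 7, with 2.04, 3.23, 1.14 and 1.60 on day 14, higher than sham in every sample (1.56, adjusted p = 0.000195, and 0.87, adjusted p = 0.00581). Ripk3 was under 1 FPKM in every sham and day 1 sample. It thus passed the filter only through days 7 and 14, and its calls are not independent support. Nfatc4 was higher too, by 0.72 on day 7 and by 0.35 on day 14 (adjusted p of 0.0011 and 0.0443). Its lowest day 14 value, 0.95 FPKM, lay within the sham values of 0.83 to 1.00 FPKM. On the other side of Adcy4, Ltb4r was under 1 FPKM in every sample used and was not tested. By the same annotation Adcy4 overlaps no other gene listed in the files. Of the 44 genes, 9 overlap another listed gene, among them Prkar1a with Fam20a and Creb1 with Mettl21a, and none of the 5 called genes does. Whether strand was used in counting is not stated, so the reads of such pairs may not be fully separated.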

How the data were processed

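The DRG RNA was sequenced as total RNA libraries. The authors removed reads of poor quality, aligned the rest with HISAT and Bowtie2, estimated expression with RSEM and deposited FPKM, 1 table per sample, with 2 decimals; the submitters' processing notes also name CASAVA 1.4. Genome build, annotation, further versions and strand setting are not given in the sources used here, and the notes name Illumina libraries where the methods name a BGI sequencer. FPKM corrects for length and library total only, so a few abundant genes that rise in a sample lower the values of all its other genes.

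Groups came from the labels, and no table held other comparisons of the authors. The prepared design had a branch for counts and a branch for FPKM, and the latter was used. Genes that reached 1 FPKM in 3 or more of 14 samples (14023 of 21021, 40 of the 44) entered limma 3.58.1 in R 4.3.3 (lmFit, eBayes with trend) on log2(FPKM + 1), 2-sided, with the Benjamini-Hochberg adjustment over all genes tested. The p-values cover the spread between rats. No pair of samples shared more than 2.59% identical values. The script was tested on simulated data. Tables and figures were made with pandas 2.3.3 and matplotlib 3.10.9 in Python 3.11.15. Alternatives were all 16 samples, only the 2 groups compared, 2 other scalings, no filter, a stricter filter on the mean (5 FPKM), a pseudocount of 0.1, no trend, quality weights, the replicate block, the study's limits and each sample left out. The fit that left out only sample 3 of day 7, and the study's limits with the fold from mean FPKM, were added after seeing the data. Of the Schwann cell list, 1 marker is not reported here.

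The genes and the lists of markers and pathway genes were chosen with earlier results of these data known. By rule, the text gives full values for each called gene and the most abundant gene of each class, and at most 4 called genes of each pathway list. Creb1, Crem, Prkacb, Pde1c, Adcy9, Pde3b, Pde7a, Ripk3, Nfatc4, Ltb4r, Gnas, Gpr3, Htr7 and Fos were named beside these after their values were seen. Promoter windows and gene order came from RefSeq (GRCr8).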

Additional observations from a re-analysis of the deposited data

Results flagged for a closer look

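All results in this paragraph come from sample 3 of TCI day 7, which the study left out and whose 16 skeletal muscle markers summed to 27862 FPKM. Rapgef4 was at 18.22 FPKM in it, against 22.03 to 22.8 FPKM in the other day 7 samples, and was a low outlier of that group by Dixon's test. It was the 1 flag among 40 sets of 4 samples tested, where chance flags about 1 in 20. These sets covered only the called genes and the most abundant gene of each class, so Adcy2, Pde4d and Pde4a were not tested for outliers. In the same sample, Adcy2 was at 19.15 FPKM, Pde4d at 19.95 FPKM, Pde4a at 5.72 FPKM and Adcy4 at 3.36 FPKM, each more than 2 times the highest sham value. For Adcy4 the other day 7 samples, at 2.50 to 2.96 FPKM, were above all sham samples as well, whereas for Adcy2, Pde4d and Pde4a they lay within or near the range of sham. Of the 40 tested genes, 24 were lower in this sample than in all other day 7 samples and 9 were higher, with a median ratio of 0.82 to their mean.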

How the results depend on the processing

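Tested over the alternatives, no result changed its sign while called. With a pseudocount of 0.1, without the intensity trend, and with only sample 3 of day 7 left out, none of the 60 values crossed its threshold and no count moved by more than 1.5 times. As fitted, 4 of the 40 genes of the chain were higher and 1 lower on day 7, 3 and 1 on day 14; of the pathway genes, 17 and 9 on day 7, 12 and 3 on day 14. Over all 16 samples, 3 were lower on day 7 and 0 on day 14; pathway genes gave 14 lower on day 7 and 7 higher and 1 lower on day 14, and 1 neuronal marker was lower on day 14. With only the 2 groups compared, 2 were lower on day 7, 5 pathway genes higher and 3 neuronal markers lower on day 14. Quantile normalization gave 2 higher and 7 lower on day 7 and 1 and 6 on day 14, with 10 and 27 pathway genes on day 7, 6 and 16 on day 14, and 8 neuronal markers lower on day 7. Median-ratio scaling gave 6 lower on day 7 and 2 on day 14, with 14 and 7 pathway genes and 8 neuronal markers. With no filter, 2 neuronal markers were lower on each day. At a mean of at least 5 FPKM, where fewer genes are tested, 1 gene of the chain was higher on each day, with 9 and 7 pathway genes and 8 macrophage markers on each day. With quality weights, 7 were higher and 4 lower on day 7, 5 higher on day 14 and 1 (Adcy4) lower on day 14 than on day 7, with 27 and 15 pathway genes and 11 neuronal markers on day 7 and 1 pathway gene lower on day 1. By the study's limits on the scale of log2(FPKM + 1) the counts were 0, for pathway genes and neuronal markers also, and 7 for macrophage markers on day 14; with the fold from mean FPKM they were the same except that 1 gene of the chain (Adcy4) and 1 pathway gene (Npr1) were higher on day 7. Counts or shares of all genes called are given above for the main fit, the 2 other scalings and the study's limits. For the remaining alternatives they are not given, so those counts cannot be read as particular to the chain or the lists. The causes were not tested.

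For the summed FPKM, day minus sham, the 16 samples gave 1.30 for phosphodiesterases, -46.4 for PKA regulatory subunits and -4.59 for the exchange factors on day 7; median-ratio scaling gave -1.58, -40.1 and -4.63, with -22.8 for PKA catalytic subunits, and -0.89 for phosphodiesterases on day 14. Leaving out 1 sample gave 1 to 2 lower on day 7 and on day 14, and 0 to 1 between them; the higher counts were 3 to 6 and 2 to 4. Pathway genes ranged from 4 to 12 lower on day 7, 6 to 18 higher and 2 to 6 lower on day 14, and neuronal markers from 4 to 8 lower on day 7.

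Samples with the same number came from different rats and share only a number. Over 18 such pairs the correlation of deviations ran from -0.10 to 0.27. Its median was 0.003, against -0.005 for pairs of different number. Of 14 samples, 6 correlated best with their own number, and how many would do so by chance was not worked out. With the replicate block, 2 genes were lower on day 7, no call of a named gene of the chain changed, and the other counts moved by at most 2, as from 12 to 10 for pathway genes higher on day 14. The counting error of low genes such as Adcy4 and Pde5a is not known.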
